A study of Rattus norvegicus with 59 samples.

Results

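The constitutive proteasome subunits were followed in rat liver after a single dose of cadmium (Cd) or chromium (Cr). Members were all probe sets of the array with exactly 1 gene symbol that begins with Psma, Psmb, Psmc or Psmd followed by a digit, without the inducible subunits Psmb8, Psmb9 and Psmb10. The rule found 45 of the 31042 probe sets, which stand for 34 genes. Of these, 44 probe sets stand for 33 subunit genes, and 1 stands for Psmc3ip, a recombination protein that meets the rule by its symbol but is no subunit and is given apart. A gene was read on its brightest probe set with 1 symbol. Only the brighter 50% of probe sets on the array (15521) were tested, by mean log2 signal over all arrays, which kept 40 subunit probe sets and all 33 genes. The 4 subunit probe sets outside it were further ones for Psmd11, Psmc4 and Psmb5 (2 of them).

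RNA from whole liver of male Sprague-Dawley rats was hybridised to 59 Affymetrix rat genome arrays, 1 array per rat. Each rat had received 1 intraperitoneal injection, either of CdCl2 at 1.25 mg/kg, of Na2Cr2O7 at the high dose (20 mg/kg by the labels, although the methods of the study also name another) or of the sterile saline vehicle alone. Livers were taken 1, 3 and 7 days later, and each metal had its own 5 control livers on each day. There were 5 exposed livers per metal and day, except for Cd on day 1, with 4 (numbers 1, 2, 4 and 5), since the study left out a rat whose array grouped with the controls and whose liver had not taken up Cd. Values are log2 signals after robust multi-array averaging (RMA), which brings the arrays to a common distribution. In whole tissue, fewer cells of a type and less RNA per cell cannot be told apart.

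The proteasome is the barrel-shaped protease that degrades proteins tagged with ubiquitin and so clears misfolded, oxidised and short-lived proteins. Its core particle is a stack of alpha rings, which gate the entrance, and beta rings, of which the subunits Psmb5, Psmb6 and Psmb7 cut the chain. The regulatory particle on its ends has a base, where a ring of ATPases (the Psmc subunits) unfolds and threads the substrate, and a lid of Psmd subunits that removes ubiquitin. In cells short of proteasome activity the transcription factor NRF1 (Nfe2l1) is known to raise the subunit genes together through antioxidant response elements, and NRF2 (Nfe2l2) acts through the same kind of element in oxidative stress.

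Because most members rose together after Cr on day 1, the sequences before their start sites were searched for 3 motifs on both strands. RefSeq promoters (build GRCr8) were found for 29 of the 33 subunit genes, the exceptions being Psma7, Psmd6, Psmd12 and Psmd14. Within the 250 bases upstream of the start, CCAAT, the box bound by NF-Y, was present in 16 of the 29 (55.2%), against 34% of 33469 rat promoters. GGGCGG, the GC box, was present in 20 (69%), against 30.5%. The core of the antioxidant response element, TGACNNNGC, was present in 5 (17.2%), namely Psma3, Psmb2, Psmb5, Psmd1 and Psmd9, against 10.1%. The rat promoters set against the members were not matched for base content or for how widely a gene is expressed. None of the motifs is part of another, but matches can share bases. In Psmb2 the antioxidant match overlaps a CCAAT at -72 and a GC box at -63. Below are, of the promoters found, those of the genes with the largest day 1 rise after Cr among the alpha, beta, ATPase and lid subunits, and that of Psmd9, the member that holds the antioxidant element more than once. Each runs 5′ to 3′ toward the start site on the strand of the gene, and capitals mark matches to the 3 motifs on either strand.
Psma5, chr2:198584255-198584504, plus strand: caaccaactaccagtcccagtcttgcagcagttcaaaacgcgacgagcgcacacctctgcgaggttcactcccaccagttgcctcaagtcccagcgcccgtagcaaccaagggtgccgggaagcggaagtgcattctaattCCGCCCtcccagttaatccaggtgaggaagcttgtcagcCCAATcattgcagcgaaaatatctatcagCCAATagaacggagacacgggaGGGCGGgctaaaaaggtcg
Psmb5, chr15:32047380-32047629, minus strand: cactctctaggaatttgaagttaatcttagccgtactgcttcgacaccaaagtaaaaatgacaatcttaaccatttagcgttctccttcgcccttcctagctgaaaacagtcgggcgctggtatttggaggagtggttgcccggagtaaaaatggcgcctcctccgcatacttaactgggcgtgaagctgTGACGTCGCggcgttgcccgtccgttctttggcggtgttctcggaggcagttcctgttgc
Psmc4, chr1:92485061-92485310, minus strand: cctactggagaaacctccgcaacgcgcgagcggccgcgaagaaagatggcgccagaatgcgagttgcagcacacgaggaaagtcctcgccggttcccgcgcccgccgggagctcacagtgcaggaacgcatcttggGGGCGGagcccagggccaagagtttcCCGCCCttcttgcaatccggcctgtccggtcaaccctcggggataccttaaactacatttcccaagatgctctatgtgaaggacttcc
Psmd13, chr1:205393998-205394247, plus strand: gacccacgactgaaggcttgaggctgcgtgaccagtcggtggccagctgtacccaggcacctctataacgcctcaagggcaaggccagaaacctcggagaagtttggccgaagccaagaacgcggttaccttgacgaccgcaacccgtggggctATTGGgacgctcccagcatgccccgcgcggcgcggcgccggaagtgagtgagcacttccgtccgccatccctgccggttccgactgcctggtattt
Psmd9, chr12:39018265-39018514, minus strand: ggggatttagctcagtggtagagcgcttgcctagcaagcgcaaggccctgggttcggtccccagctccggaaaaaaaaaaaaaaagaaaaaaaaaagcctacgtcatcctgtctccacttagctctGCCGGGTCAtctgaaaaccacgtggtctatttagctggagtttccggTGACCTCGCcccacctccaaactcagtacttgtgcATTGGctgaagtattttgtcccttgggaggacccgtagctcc
Psma5 carries CCAAT with its first base at -70 and at -41 from the start and the GC box at -109 (opposite strand) and -19. Psmb5 holds neither of these and carries 1 antioxidant element at -60. In Psmc4 the GC box stands at -114 and, on the opposite strand, at -88. In Psmd13 the CCAAT box stands at -96 on the opposite strand, and in Psmd9 the antioxidant element stands at -124 (opposite strand) and -77. The median log2 fold change after Cr on day 1 was 0.24 in the 5 genes with the antioxidant element and 0.44 in the 24 without it, and for both CCAAT and the GC box it was 0.40 with the motif and 0.45 without. The 5 ran from -0.01 to 0.55 and the 24 from 0.12 to 0.63. The lowest of the 5, Psma3, has a brighter shared probe set that rose after Cr (given below). Whether genes with and without a motif differ was not tested. A match is a description of the letters and not a bound site.

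Arrays of a group were alike, with each array correlating at 0.974 to 0.994 with the mean of the rest of its group. The lowest value was that of Cr-exposed day 1 liver 5, followed by Cd-exposed day 7 liver 2 at 0.978. Median log2 signals lay between 7.32 and 7.55 and were 7.46 to 7.55 in the Cr-exposed day 1 livers, against 7.37 to 7.46 in their controls. No pair of arrays held identical values. Between control livers of different days no subunit gene passed limma at an adjusted p of 0.05 (median differences of the 33 genes between -0.06 and 0.03 on the log2 scale). Of all probe sets at most 1.1% passed in these comparisons, so a count of none is near the background.

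On day 1 nearly the whole complex rose after Cr, and a smaller group, most of them core particle subunits in this fit, rose after Cd. By limma, with p-values adjusted over all 15521 probe sets by the Benjamini-Hochberg method and called at 0.05, 28 of the 33 subunit genes were higher after Cr and none was lower, beside 27.9% of all probe sets called higher and 17.8% called lower. Their log2 fold changes ran from -0.01 to 0.65, with a median of 0.45, where the median over all probe sets was 0.04. After Cd 9 of the 33 genes were higher and 1 was lower, against backgrounds of 12.8% and 10.6%. With only the arrays of that day in the fit, 4 were higher, all of them alpha ring genes, and none was lower, against 8.86% of all probe sets higher. Of the 23 genes not called after Cd in the main fit, 7 passed in either direction under at least 1 of 19 alternatives. The Cd changes ran from -0.32 to 0.33 with a median of 0.14, against 0.01 over all probe sets. All changes were small. No subunit gene passed a fold of 1.8, which 4.83% of all probe sets passed after Cr and 3.86% after Cd together with the adjusted p. Every exposed array lay above every control array in 15 genes after Cr (background 12.7%) and in 10 genes after Cd (9.62%), and below in none after Cr (8%) and in 1 after Cd (8.13%).

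Counted by probe set, 31 of 40 were higher and 2 lower after Cr, and 9 higher and 1 lower after Cd. The array medians moved with Cr exposure, and their part in the result was measured by centring each array on its median. Then 25 of the 40 subunit probe sets were called higher after Cr, against 20% of all probe sets. Over all probe sets the share of calls that were higher went from 61.0% to 42.7% with this centring, and to 50.6% when the arrays were quantile normalised again, where 28 subunit probe sets and 22.7% of all probe sets were higher.

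**Figure D1:**
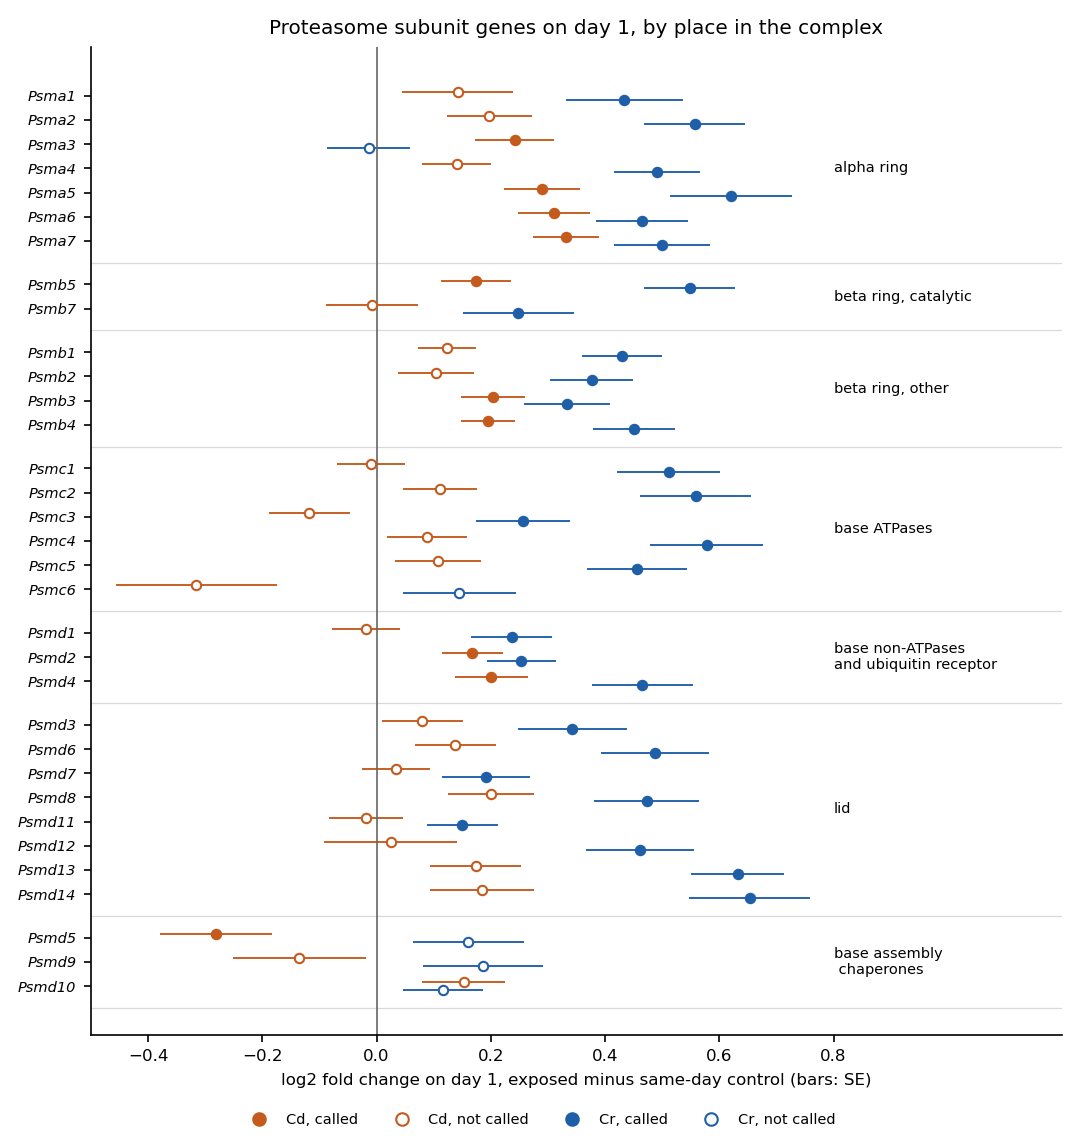
Log2 fold change (x axis, with SE bars) of the 33 subunit genes on day 1 against same-day controls, grouped by place in the complex. Filled points passed the adjusted p of 0.05 (28 rises after Cr, 9 rises and 1 fall after Cd), and the Cr points lie to the right of the Cd points in 31 of the 33 genes.

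Of the cutting subunits, Psmb5 carries the chymotrypsin-like site that most proteasome inhibitors block. Its log2 signal in the Cr controls of day 1 was 11.43, 11.14, 11.26, 11.20 and 11.21, and in the exposed livers 11.92, 11.61, 11.83, 12.05 and 11.57. All exposed livers stood above all controls, and the difference was 0.55 ± 0.08 (SE, adjusted p = 3.79e-06). After Cd the controls gave 11.25, 11.17, 11.21, 11.12 and 11.06 and the 4 exposed livers 11.34, 11.35, 11.40 and 11.26. Here too the groups did not overlap, although the lowest exposed liver was within rounding of the highest control, and the rise was 0.17 ± 0.06 (adjusted p = 0.0378). That call was lost under 10 of 19 alternatives, 6 of them the leaving out of 1 liver (control 2, 4 or 5, or exposed 1, 2 or 4).

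Psmb7, which cuts after basic residues, had a smaller change. Its signal after Cr was 8.90, 8.65, 8.84, 8.88 and 8.50, against 8.69, 8.50, 8.40, 8.52 and 8.42 in controls. Livers 2 and 5 lay within the control range, the rise was 0.25 ± 0.10 (adjusted p = 0.0371), and it was lost under 11 of 20 alternatives, among them leaving out control 2, 3, 4 or 5 or exposed liver 1, 3 or 4. After Cd it was 8.27, 8.58, 8.42 and 8.47 against 8.62, 8.34, 8.49, 8.41 and 8.37, and the difference was -0.01 ± 0.08. For Psmb6, the caspase-like subunit, the array has a probe set that is shared with its copy Psmb6l1 and therefore is not a member. That shared probe set read 10.78, 10.45, 10.80, 10.85 and 10.40 after Cr, above all controls (9.88 to 10.36), a rise of 0.51 ± 0.09 (adjusted p = 5.21e-05). After Cd its difference was 0.08 ± 0.06 and was not called.

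**Figure D2:**
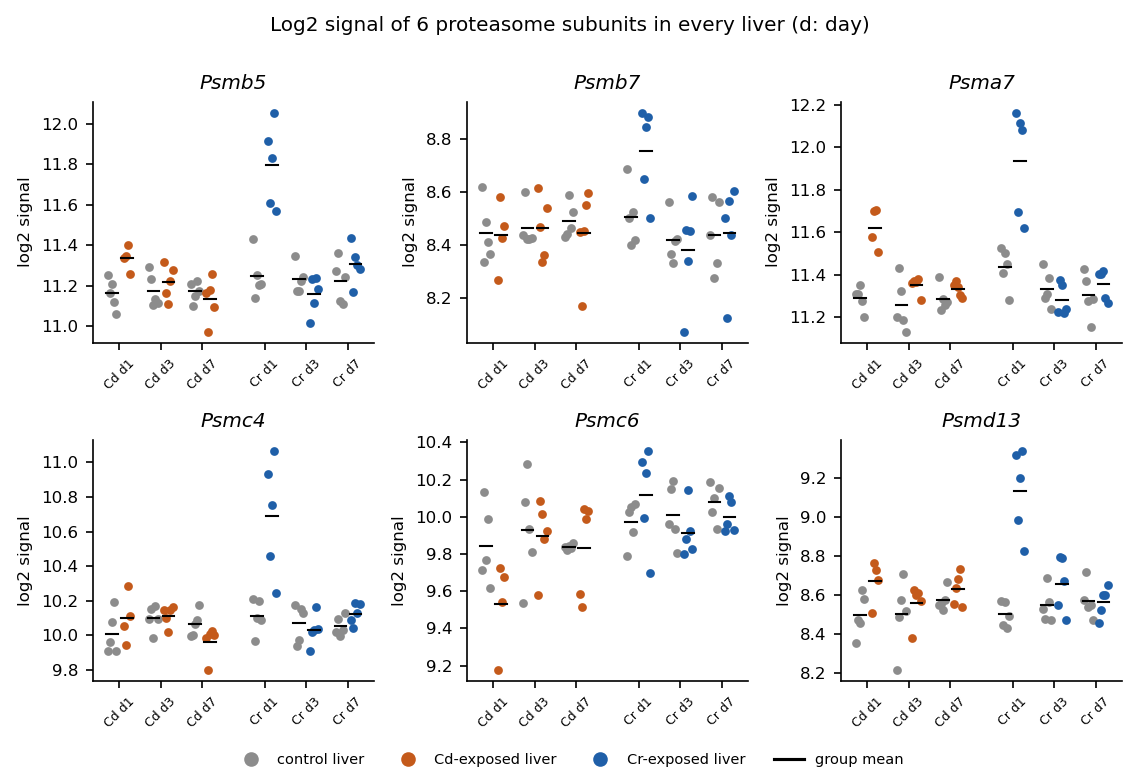
Log2 signal (y axis, its range set for each gene) of 6 subunits in each liver, by metal and day (x axis), with black bars at the group means. Psmb5, Psma7, Psmc4 and Psmd13 have all 5 Cr-exposed day 1 livers above their controls, whereas Psmb7 and Psmc6 overlap. Days 3 and 7 show overlapping groups in all 6 genes.

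In the alpha ring, which opens and closes the gate of the core, most genes rose after Cr. There 6 of its 7 genes were higher (median 0.49 over the 7), with Psma5 at 0.62, Psma2 at 0.56, Psma7 at 0.50, Psma4 at 0.49, Psma6 at 0.46 and Psma1 at 0.43. After Cd 4 of the 7 were higher (median 0.24, background 12.8%), namely Psma7 at 0.33, Psma6 at 0.31, Psma5 at 0.29 and Psma3 at 0.24. Psma7 had the lowest p of the ring after Cd. Its signal was 11.58, 11.70, 11.70 and 11.51 in the Cd-exposed livers and 11.31, 11.31, 11.35, 11.28 and 11.20 in their controls, with no overlap (SE 0.06, adjusted p = 0.000113). After Cr it was 12.16, 11.70, 12.11, 12.08 and 11.62 against 11.53, 11.41, 11.50, 11.45 and 11.28, again without overlap. Psma4 had the lowest p after Cr, at 11.35, 11.14, 11.28, 11.26 and 10.82 against 10.66, 10.69, 10.71, 10.71 and 10.62 (SE 0.08, adjusted p = 8.36e-06). All exposed livers were above the controls and liver 5 was closest to them. After Cd Psma4 read 10.58, 10.76, 10.75 and 10.77 against 10.52, 10.56, 10.65, 10.63 and 10.52, so that liver 1 lay within the controls, and the difference of 0.14 ± 0.06 was not called.

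Psma3 was the exception of the ring. On the probe set with its symbol alone, the Cr-exposed livers read 8.09, 8.05, 7.91, 8.07 and 7.94 and the controls 7.83, 8.20, 7.91, 8.20 and 7.99, a difference of -0.01 ± 0.07. A brighter probe set, annotated both to Psma3 and to its near-identical copy Psma3l, read 12.02 ± 0.32 after Cr (SD, n = 5) against 11.42 ± 0.05 in controls (SD, n = 5), a rise of 0.59 ± 0.10 (adjusted p = 2.92e-05). After Cd the probe set of Psma3 alone rose by 0.24 (adjusted p = 0.0116) and the shared one differed by 0.20 ± 0.08 (adjusted p = 0.0872). The probe sets of this gene therefore disagree after Cr, and which transcript each one reads was not tested.

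The beta ring subunits without a cutting site were all higher after Cr (4 of 4, median 0.40), at 0.45 for Psmb4, 0.43 for Psmb1, 0.38 for Psmb2 and 0.33 for Psmb3. Psmb4 read 12.36, 12.08, 12.20, 12.36 and 11.81 against 11.82, 11.63, 11.71, 11.73 and 11.66, with liver 5 inside the control range (SE 0.07, adjusted p = 1.27e-05). After Cd it read 11.79, 11.84, 11.79 and 11.76, above all controls (11.60, 11.61, 11.55, 11.64 and 11.60), and rose by 0.19 ± 0.05 (adjusted p = 0.00314). Psmb3 was the other of the 4 that rose after Cd, by 0.20 (adjusted p = 0.00927). Psmb1 at 0.12 and Psmb2 at 0.10 were not called.

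The ATPase ring is the motor that unfolds the substrate. After Cr 5 of 6 ATPase genes were higher (median 0.48), with Psmc4 at 0.58, Psmc2 at 0.56, Psmc1 at 0.51, Psmc5 at 0.46 and Psmc3 at 0.26. After Cd none of the 6 was called, and their values ran from -0.32 to 0.11. With 12.8% of all probe sets higher and 10.6% lower after Cd, none of 6 is near the background. Psmc4 read 10.93, 10.46, 10.76, 11.07 and 10.25 after Cr against 10.21, 9.97, 10.10, 10.20 and 10.09, with no overlap (SE 0.10, adjusted p = 3.2e-05). After Cd it read 10.06, 9.94, 10.29 and 10.11 among controls at 9.91, 9.96, 10.08, 10.19 and 9.91, which overlap. Psmc6 was the ATPase gene called after neither metal. After Cr its signal was 10.29, 10.00, 10.24, 10.36 and 9.70 against 9.79, 10.03, 10.05, 9.92 and 10.07, with liver 5 below every control (0.15 ± 0.10, not called). After Cd it was 9.18, 9.72, 9.54 and 9.67 against 9.71, 10.13, 9.77, 9.99 and 9.62, a difference of -0.32 ± 0.14 (adjusted p = 0.111). Its further probe sets gave -0.36 and -0.39 after Cd and -0.06 and -0.18 after Cr, none of them called.

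Among the other base subunits, the scaffold proteins Psmd1 and Psmd2 and the ubiquitin receptor Psmd4, all 3 rose after Cr (0.24, 0.25 and 0.47). After Cd Psmd2 (0.17) and Psmd4 (0.20) rose and Psmd1 gave -0.02. Psmd2 read 10.13, 10.09, 10.07 and 10.06 in the Cd-exposed livers, above all controls (9.90, 9.90, 9.98, 9.93 and 9.88, adjusted p = 0.023), and after Cr 10.36, 10.45, 10.44, 10.36 and 10.11 against 10.15, 10.15, 10.12, 10.09 and 9.95 (adjusted p = 0.0011). In the Cr group only liver 5 was within the controls. Without Cd-exposed liver 1 the Cd call of Psmd2 was lost. Psmd4 after Cr read 9.62, 9.26, 9.64, 9.73 and 9.09 against 9.08, 8.97, 9.11, 9.0 and 8.86 (SE 0.09, adjusted p = 0.000112), again with liver 5 within the controls. After Cd it read 9.09, 8.89, 9.16 and 8.91 against 8.80, 8.93, 8.86, 8.78 and 8.69 (SE 0.06, adjusted p = 0.0234). Livers 2 and 5 lay within these controls, and the call was lost without control 5 or without exposed liver 1 or 4.

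In the lid 8 of 8 genes were higher after Cr (median 0.47), of which Psmd11 has a conflicting probe set, and none was called after Cd (0 of 8, values from -0.02 to 0.20). With 12.8% of all probe sets higher and 10.6% lower after Cd, none of 8 is near the background. Psmd14, the deubiquitinase that strips the ubiquitin chain as the substrate enters, had the largest rise of the 33 genes, 0.65 ± 0.11 (adjusted p = 1.66e-05), and its other probe sets gave 0.68 and 0.33. Psmd13, a lid scaffold protein, had the lowest p of all members. Its signal after Cr was 9.31, 8.98, 9.20, 9.34 and 8.83 against 8.57, 8.45, 8.56, 8.43 and 8.49, a rise of 0.63 ± 0.08 (adjusted p = 8.64e-07) with no overlap. After Cd Psmd13 read 8.51, 8.77, 8.73 and 8.68 against 8.35, 8.47, 8.45, 8.62 and 8.58, which overlap (0.17 ± 0.08, not called). Psmd8 had the lowest p of the lid after Cd, at 10.18, 10.34, 10.32 and 10.10 against 10.04, 10.06, 10.08, 10.05 and 9.93. All 4 exposed livers were above the controls, yet the difference of 0.20 ± 0.07 missed the threshold (adjusted p = 0.0525). It passed under 5 of 19 alternatives, among them leaving out Cd-exposed liver 5. After Cr Psmd8 read 10.78, 10.25, 10.68, 10.91 and 10.31, above controls at 10.20, 10.12, 10.02, 10.15 and 10.08 (0.47 ± 0.09).

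Psmd6 at 0.49, Psmd12 at 0.46 and Psmd3 at 0.34 also rose after Cr. The smallest rises of the lid were those of Psmd7 at 0.19 (adjusted p = 0.0416, with 0.38 on a further probe set) and Psmd11 at 0.15 (adjusted p = 0.0497). A further probe set of Psmd11 was called lower, at -0.19 ± 0.06 (adjusted p = 0.00733), so no direction can be given for Psmd11. The mean of all its probe sets was -0.09, which includes a dim one (mean log2 4.03) that was not tested. The call of Psmd7 was lost under 11 of 20 alternatives, among them leaving out any of controls 2 to 5 or exposed liver 1 or 4. That of Psmd11 was lost or turned under 12, among them leaving out any 1 control or exposed liver 1, 3 or 4.

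The chaperones that put the base together leave before the complex works. After Cr none of the 3 was called, with Psmd9 at 0.19, Psmd5 at 0.16 and Psmd10 at 0.12, and a dimmer probe set of Psmd9 was called lower at -0.19 (adjusted p = 0.0073). Beside 27.9% of all probe sets higher and 17.8% lower after Cr, 3 genes are too few to set apart from the background. After Cd Psmd5 was the one member gene that fell. It read 8.60, 8.85, 8.84 and 8.88 in exposed livers, below all controls (9.12, 9.04, 9.28, 9.02 and 8.89), a change of -0.28 ± 0.10 (adjusted p = 0.0376). This call was lost under 8 of 19 alternatives, among them leaving out control 1, 2 or 3 or exposed liver 1 or 4. Psmd9 at -0.14 and Psmd10 at 0.15 were not called after Cd.

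The size of the Cr response differed between livers. The mean of the 33 genes, relative to the control mean of the day, was 0.56, 0.21, 0.47, 0.61 and 0.08 on the log2 scale in Cr-exposed livers 1 to 5, where controls ran from -0.05 to 0.04. All 5 were above the controls, but livers 1, 3 and 4 stood well above livers 2 and 5. The order was shared by most genes. Liver 5 was lowest of the exposed livers in 24 of the 33 genes, and liver 4 was highest in 20. Liver 5 was also the array least like its group. Without it 33 of the 40 probe sets were called higher, and leaving out each liver of day 1 in turn gave 26 to 33.

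Other genes had a similar order of livers. The mean log2 signal of 9 NRF2 target genes was 10.03, 9.44, 9.77, 10.22 and 9.24 in these livers, against 9.26 to 9.45 in controls, and that of 7 heat shock genes was 9.23, 8.75, 9.01, 9.47 and 8.76, against 8.36 to 8.64. Epcam, a marker of bile duct cells, read 9.95, 8.82, 9.03, 10.01 and 8.18, against 7.63 to 8.48. Other values ran the other way. Mt2A, a metallothionein, read 8.81, 11.14, 12.20, 9.38 and 12.18 against 8.21 to 9.78. The mean of 4 endothelial markers was 8.69, 9.01, 8.79, 8.39 and 9.10, against 8.67 to 8.87, and that of 7 hepatocyte markers was 13.64, 13.72, 13.65, 13.61 and 13.76, against 13.71 to 13.80, both in the reverse order of the subunit mean. The array medians were 7.55, 7.51, 7.51, 7.53 and 7.46. What part any of these has in the spread of the subunit genes was not tested. After Cd the subunit mean was 0.02, 0.12, 0.14 and 0.11 in livers 1, 2, 4 and 5, against -0.10 to 0.05 in controls, and liver 1, lowest of the exposed in 21 genes, lay within the controls.

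**Figure D3:**
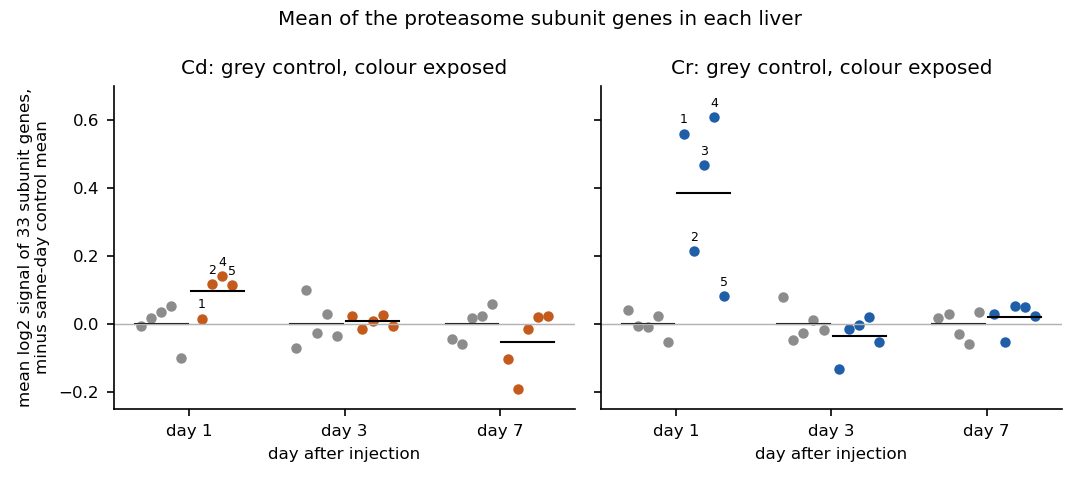
Mean log2 signal of the 33 subunit genes in each liver (y axis), minus the mean of the same-day controls, by day (x axis) for Cd (left) and Cr (right). Grey points are control livers, coloured points are exposed livers, digits are the liver numbers on day 1 and bars are group means. The Cr-exposed day 1 livers spread from 0.08 to 0.61, and the later days stay between -0.19 and 0.10.

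The metals were compared directly by testing the Cd effect minus the Cr effect in 1 fit of all arrays. Cd was given at the medium dose of the study and Cr at the high dose, each with its own controls. A difference between the metals therefore cannot be told apart from one of dose level or of series. On day 1 the effect of Cd was lower than that of Cr in 19 of the 33 genes and higher in 1, beside 15.3% and 9.54% of all probe sets. The median difference was -0.31, against -0.03 over all probe sets. Psmc1 (-0.52, adjusted p = 0.000366), Psmc4 (-0.49), Psmd14 (-0.47), Psmc6 (-0.46) and Psmd13 (-0.46) had the lowest values. All 6 ATPase genes were among the 19, though for Psmc6 the further probe sets were not called (-0.30 and -0.21). Psma3 was the gene with the higher effect after Cd (0.26, adjusted p = 0.0483), while its shared probe set gave -0.39 (adjusted p = 0.0239). Psma6 (-0.15), Psma7 (-0.17), Psmb3 (-0.13), Psmd2 (-0.09) and Psmd4 (-0.26, adjusted p = 0.0693), which rose after both metals, did not pass the test of the difference.

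Across the 33 genes, 8 were called higher after both metals (Psma5, Psma6, Psma7, Psmb3, Psmb4, Psmb5, Psmd2 and Psmd4) and none was called in opposite directions. Over all probe sets tested 6.67% were higher after both and 1.41% were called in opposite directions, so that none in 33 is near the background. The change after Cr was the higher one in 31 of the 33 genes, against 54.3% of all probe sets. The Cd and Cr changes correlated at r = 0.51 (Spearman rho = 0.45) over the 33 genes and at 0.44 (0.43) over all probe sets tested. This is a correlation across genes read on the same arrays, so the points are not independent. Brighter members tended to have the larger change, with a correlation of signal and change of 0.44 after Cr and 0.36 after Cd over the 33 genes, where all probe sets gave -0.08 and -0.05. By probe set 22 differed between the metals. That count fell to 13 when arrays were centred on their medians, and to 14 without Cd-exposed liver 1, 11 without Cr-exposed liver 1 and 9 without Cr-exposed liver 4.

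On day 3 no member passed the test against same-day controls after either metal, and none did on day 7. Few probe sets passed overall. On day 3, 1.15% were higher and 0.148% lower after Cd and 0% in either direction after Cr, and on day 7 the shares were 0.0129% and 0.0129% after Cd and 0.0838% and 0.148% after Cr. The median change of the 33 genes was 0.01 on day 3 and -0.04 on day 7 after Cd, and -0.05 and 0.02 after Cr. At an unadjusted p of 0.05 no gene passed on day 3 after Cd (background 11.9%), 4 passed as lower on day 7 after Cd (8.21%), and none passed after Cr on day 3 (8.5%) or day 7 (10.8%). Those 4 were Psmd12 (-0.25), Psmd5 (-0.21), Psmd8 (-0.16) and Psmd4 (-0.14), with adjusted p from 0.583 to 0.595. For Psmd4 the exposed livers read 8.77, 8.64, 8.67, 8.79 and 8.74 and the controls 8.86, 8.90, 8.82, 8.89 and 8.85, which do not overlap.

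For Psmb5 the later days read as follows. In Cr-exposed livers it read 11.02, 11.23, 11.11, 11.24 and 11.19 on day 3, against 11.35, 11.17, 11.18, 11.22 and 11.24 in controls, and 11.44, 11.17, 11.34, 11.30 and 11.28 on day 7, against 11.27, 11.36, 11.13, 11.11 and 11.24. Exposed and control livers overlapped on both days. The Cr effect of day 1 was higher than that of day 3 in 23 of the 33 genes and lower in none (backgrounds 15.4% and 9.86%), with a median difference of 0.47, led by Psmd14 (0.78), Psma5 (0.73), Psma2 (0.65) and Psmb5 (0.62, adjusted p = 0.00034). For Cd the same test passed for Psma3 (0.32) and Psma6 (0.30) and for no gene in the other direction (backgrounds 5.36% and 5.81%). These counts share the day 1 livers with the day 1 comparison. Between the metals no member passed on day 3 (0.058% of all probe sets in either direction) or day 7 (0.722%).

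Around the constitutive subunits, other genes of the proteasome system were read for comparison. The inducible subunits Psmb8, Psmb9 and Psmb10, which replace the constitutive cutting subunits under interferon, and the activators Psme1 and Psme2 (PA28) were all 5 higher after Cd on day 1, by 0.88, 0.97, 0.95, 0.28 and 0.78. After Cr only Psmb10 (0.73) and Psme2 (0.47) were, with Psmb9 at 0.31, Psme1 at 0.17 and Psmb8 at -0.04. The shares of all probe sets called higher were 12.8% after Cd and 27.9% after Cr. Between the metals the difference passed for Psmb8 (0.92, adjusted p = 0.00771) and Psme2 (0.31, adjusted p = 0.0218). The effect of Cd was thus the higher one for inducible Psmb8 and the lower one for Psmb5 (-0.37, adjusted p = 0.00401), the constitutive subunit that Psmb8 replaces. On day 3 after Cd, Psmb8 (0.66), Psmb9 (0.64) and Psmb10 (0.48) were still higher, when no constitutive member was called.

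The chaperones of the core particle rose with it after Cr. Of 5 tested, 4 were higher, Psmg3 by 0.60, Psmg4 by 0.54, Psmg2 by 0.52 and the maturation factor Pomp by 0.25, while Psmg1 was at -0.14 and not called. After Cd none of the 5 was called, which is near the background of 12.8% higher and 10.6% lower. Beside 27.9% of all probe sets higher and 17.8% lower after Cr, 5 of 13 regulators and partners tested were higher and 1 was lower. They were the stress-induced proteasome binder Zfand2a (1.29), the deubiquitinases Usp14 (0.44) and Uchl5 (0.42), the small lid protein Sem1 (0.41) and the ubiquitin shuttle Rad23b (0.29), and the shuttle Ubqln1 was lower (-0.19). After Cd 3 of the 13 were higher (background 12.8%), Zfand2a (1.24), Zfand5 (0.27) and Ubqln2 (0.18). Usp14, Uchl5 and Sem1 also differed between the metals, at -0.47, -0.49 and -0.27. Among 8 tested genes of the unfoldase p97 and its cofactors, Nsfl1c (0.52), Ufd1 (0.28) and Vcp itself (0.15) were higher after Cr and Ddi2, the protease that activates NRF1, was lower (-0.74). After Cd only Nploc4 was called (0.27). In these lists of 13 and 8 genes the counts are near the background. Of the ubiquitin and E1 genes just Uba1 and Uba6 were tested, and Uba6 was lower after Cr (-0.21).

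**Figure D4:**
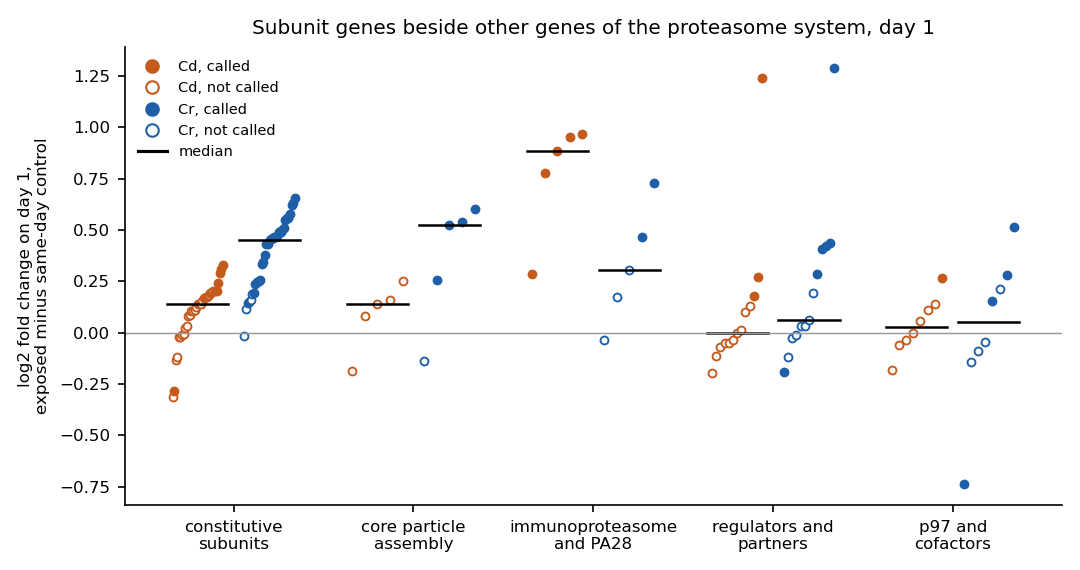
Log2 fold change on day 1 against same-day controls (y axis) of each tested gene in 5 groups of the proteasome system (x axis), with black bars at the medians. The constitutive subunits and the core particle assembly genes have medians of 0.45 and 0.52 after Cr and 0.14 and 0.14 after Cd, whereas the immunoproteasome and PA28 genes have medians of 0.31 after Cr and 0.88 after Cd.

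The transcripts of the factors known to act on subunit genes were read too, whereas their proteins and activity were not measured. Nfe2l1, which encodes NRF1, was at 0.06 after Cr and 0.05 after Cd and was not called. Nfe2l2, which encodes NRF2, was higher after Cr (0.56, adjusted p = 0.00352) and lower after Cd (-0.70, adjusted p = 0.000782), and the effects differed (-1.26). Of 9 NRF2 target genes tested, 4 were higher after Cr, with Nqo1 at 1.73 and Srxn1 at 1.33, and Me1 was lower (-1.10). After Cd Hmox1 (1.48) and Nqo1 (1.14) were higher and 4 were lower, with Gclc at -1.27. Of 7 heat shock genes 6 were higher after Cr (Hspb1 1.11, Hsph1 0.98) and 1 after Cd (Hspa1a 2.22). The shares of all probe sets were 27.9% higher and 17.8% lower after Cr, and 12.8% and 10.6% after Cd. Hspa1a read 10.59 in Cd-exposed liver 1 and 6.01, 6.28 and 7.75 in livers 2, 4 and 5, against 4.95 to 6.18 in controls. Without liver 1, left out after its value was seen, the difference was 1.24 and was not called (adjusted p = 0.15). The metallothionein Mt2A rose after both, by 4.43 after Cd and 2.02 after Cr.

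Markers of liver cell types moved on the same days. After Cd on day 1 all 7 Kupffer cell markers tested were lower (median -3.23), with an array mean of 5.25 to 7.59 against 8.51 to 9.01 in controls, as were all 5 markers of cycling cells (5.41 to 6.72 against 8.15 to 8.75). The neutrophil marker S100a9 was higher (3.64), Lyve1 was the 1 of 4 endothelial markers that was higher, Rgs5 the 1 of 5 stellate cell markers, and Epcam was lower (-0.46). Of the 5 stellate cell markers, 2 had values below 0 after Cd. Of 7 hepatocyte markers 3 were lower, and their array means were 13.5 to 13.7 against 13.7 to 13.8. After Cr 1 of 7 Kupffer cell markers was higher (8.70 to 9.18 against 8.55 to 8.83), 1 of 5 cycling markers was lower (6.68 to 8.23 against 8.27 to 8.68), and 1 hepatocyte marker was higher and 2 lower (13.6 to 13.8 against 13.7 to 13.8). S100a9 (1.34), Epcam (1.14), Pecam1 (1 of 4 endothelial markers) and Dcn and Rgs5 (2 of 5 stellate markers) were higher after Cr. The other 3 endothelial markers had values below 0 after Cr. Over all probe sets 27.9% were higher and 17.8% lower after Cr, and 12.8% and 10.6% after Cd, so 1 of 4 or 1 of 5 is near the background. S100a9 was the only 1 of 5 listed neutrophil markers that was tested, and Epcam the only 1 of 5 for bile duct cells. Markers of T and B cells lay outside the probe sets tested. The hepatocyte markers were bright in every group, and the part of changed cell shares in the subunit values was not tested.

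Psmc3ip, the member that is no subunit, read 6.58, 6.16, 6.19, 6.41 and 6.36 after Cr on day 1 against 6.33, 5.99, 6.15, 6.25 and 5.95, and 6.33, 6.27, 6.17 and 6.11 after Cd against 6.13, 6.03, 6.36, 6.25 and 6.24. Both pairs of groups overlapped and neither difference was called (0.21 and 0.02).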

How the data were processed

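Total RNA of 59 rat livers was measured on Affymetrix rat genome arrays. The deposited values are log2 signals per probe set, made by the authors with RMA in Partek (no version given in the sources used here). Of the 31042 probe sets, without 57 array control probe sets, 20826 carried 1 gene symbol in the platform annotation, 436 several and 9780 none. No sequencing depth applies, and the number of arrays limits the precision.

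Groups came from the labels of the samples, which call them biological replicates. The 15521 probe sets with the higher mean signal (lowest mean log2 5.41) were tested with limma 3.58.1 (R 4.3.3, statmod 1.5.0) on group means, with 1 fit for the 29 Cd arrays and 1 for the 30 Cr arrays. Exposed livers were compared with same-day controls, where the study pooled its controls over days (an alternative here). Cd minus Cr effects came from a fit of all 59 arrays. A call was a Benjamini-Hochberg adjusted p of 0.05 over all probe sets tested, with no fold threshold. The code was tested on simulated data. The members, gene lists and tests were chosen with earlier results of these data known. By rule, every member gene may be named, values per liver were given for the catalytic subunits and for the lowest day 1 p in each role, and further members with conflicting probe sets or a fall were added after their values were seen, as were further genes of the other lists beyond the 3 with the lowest p. Alternatives covered the controls, the filter, the normalisation, the variance model, array weights, the arrays in the fit, the probe set of a gene, a replicate block and leaving out each liver. Promoters came from a RefSeq table of build GRCr8 and were searched with Python 3.11.15.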

Additional observations from a re-analysis of the deposited data

Results flagged for a closer look

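Single livers stood apart from their group in 12 of 144 tests of the named genes and of the subunit mean, where the gap to the nearest liver, as a share of the range of the group, passed the critical value of Dixon. About 1 in 20 such groups is marked by chance. On day 1 these were Psma4 in Cd-exposed liver 1 (10.58, next 10.75, share 0.922), Psmd8 in Cd control 5 (9.93, next 10.04, 0.779) and Psmd2 in Cr-exposed liver 5 (10.11, next 10.36, 0.736). On day 3 control livers were high for Psmb7 (Cd control 2, 0.909), Psmd4 (Cd control 2, 0.771) and Psmb4 (Cr control 1, 0.736), and low for Psmb4 (Cd control 3, 0.787). Exposed livers were low for Psma7 (Cd liver 5, 0.847) and Psmd13 (Cd liver 1, 0.767). On day 7 Psmc4 was low in Cd-exposed liver 2 (0.812), and Psmd8 (0.849) and the subunit mean (-0.05, next 0.02, share 0.723) were low in Cr-exposed liver 2.

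Effects differed between metals or days, by limma on the difference itself, in 15 of 33 tests. The tests covered the named genes, most of them chosen by the lowest day 1 p of their role, and not the 33 subunit genes. That choice favours a difference on day 1, so the count is no separate support. Over all probe sets, 9.54% were higher and 15.3% lower for Cd minus Cr on day 1. For day 1 minus day 3 the shares were 15.4% and 9.86% for Cr, and 5.36% and 5.81% for Cd. The day 1 effect of Cd was lower than that of Cr for Psmc4 (-0.49), Psmc6 (-0.46), Psmd13 (-0.46), Psmb5 (-0.37), Psma4 (-0.35) and Psmb4 (-0.26). The Cr effect of day 1 was higher than that of day 3 for Psmb5 (0.62), Psmc4 (0.62), Psma7 (0.55), Psmd8 (0.53), Psmd13 (0.52), Psma4 (0.48), Psmd4 (0.47), Psmb4 (0.45) and Psmd2 (0.25).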

How the results depend on the processing

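Of the 10 genes called after Cd on day 1, 4 kept their call under all 19 alternatives, and of the 28 called after Cr, 22 did under all 20. No call changed direction except that of Psmd11 after Cr, which was -0.09 on the mean of its probe sets, a dim untested one included. The following counts are of the 40 subunit probe sets. With controls pooled over days, 4 were lower after Cd and 4 after Cr on day 1, in place of 1 and 2. None was lower after Cd (0) with no filter, with array weights or with only the 1 day in the fit, which gave 4 higher after Cd and 0 lower after Cr. With array weights 1 was lower after Cr on day 7. Centring on the median left 13 probe sets that differed between the metals on day 1, in place of 22. The day 1 minus day 3 effect of Cd passed for 1 with no filter, 5 with quantile normalisation again or with array weights and 4 with trend and robust variance, in place of 2. The cause was not tested, and the 1-day fit also held fewer arrays. Leaving out each liver in turn gave 0 to 2 lower and 7 to 10 higher after Cd, 26 to 33 higher and 2 to 3 lower after Cr, 9 to 29 that differed between the metals (29 without Cr-exposed liver 5), 1 to 4 for the day 1 minus day 3 effect of Cd and 23 to 31 for that of Cr.

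Replicate numbers were not taken as pairs, since every pair would have had to correlate above 0.1 and 17 of 29 did. In 16 of the 29 a sample correlated best with its own number, although each exposed liver had 5 controls to match (mean correlation 0.126 with its own number). This is a sign of a shared factor, read from the data and not from the design. The fits without a block do not take such a factor into account. The replicate block gave 14 higher after Cd on day 1, in place of 9, and 4 for the day 1 minus day 3 effect of Cd. The block called 3 of the 8 lid genes higher after Cd (Psmd8, Psmd13 and Psmd14) and 6 of the 7 alpha ring genes, in place of 0 and 4.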
